A study of Mus musculus with 24 samples.

Results

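The transcripts of the 4 glutathione peroxidases Gpx1, Gpx2, Gpx3 and Gpx4 were measured in the liver and colon of 12 female C57BL/6 mice. Members were chosen by name, as every probe that the array files assign to one of these genes. Each gene had 1 probe in 1 spot, so 4 of 41174 probes and 4 of 27962 gene names belong to the set. All mice were offspring of dams fed HF-low, a diet rich in fat with little selenium and folate, from 7 days before mating until the pups were weaned at about 28 days. From weaning, 6 mice stayed on that diet (HF-low-low; 0.1 mg/kg selenium and 0.4 mg/kg folate) and 6 received another high-fat diet, sufficient in both nutrients (HF-low-suf; 0.6 mg/kg selenium and 1.8 mg/kg folate), until whole liver and whole colon were taken at 12 weeks of age. The 4 groups were thus liver and colon of each diet, with 6 arrays each, and liver and colon of a mouse came from the same animal. Selenium and folate were changed together, so their parts in a diet difference cannot be told apart, and both diets were high in fat.

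Glutathione peroxidases reduce hydrogen peroxide and organic hydroperoxides with glutathione as the electron donor. Gpx1 to Gpx4 are selenoproteins in the mouse, made by reading a UGA codon as selenocysteine, and their supply therefore depends on dietary selenium. They differ in where they work. GPX1 is the widespread cytosolic enzyme and is abundant in liver, GPX2 is the gastrointestinal enzyme of the epithelium, GPX3 is secreted into plasma and comes largely from the kidney, and GPX4 reduces lipid hydroperoxides within membranes. When selenium runs short, Gpx1 mRNA is known to be lost early, while Gpx4 is known to be comparatively spared.

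The probes are 60 bases long, with positions in mouse build mm7 as the array files list them. Gpx1 was read at chr9:108073279-108073338 (plus strand), Gpx2 at chr12:74751100-74751159 (minus strand), Gpx3 at chr11:54866691-54866750 (plus strand) and Gpx4 at chr10:79836650-79836709 (plus strand). No mm7 annotation was used here, so exon and UTR are not assigned to them. The probes of Gpx1 and Gpx4, the pair of members that was higher in liver, are shown 5′ to 3′ because they show what a spot of this family binds. Each has a reading frame with 0 stop codons, as have the probes of Gpx2 and Gpx3, and no base is marked in capitals:
Gpx1: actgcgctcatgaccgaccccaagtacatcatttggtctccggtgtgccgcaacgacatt
Gpx4: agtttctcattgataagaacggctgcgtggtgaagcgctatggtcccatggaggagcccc
The 4 probes share no run of more than 6 bases with one another. Of the other 41173 probes on the array, none shares a run of 15 bases or more with the probe of Gpx1, Gpx2 or Gpx4, and 1, for Igsf4a, shares 16 bases with that of Gpx3. Binding by transcripts that are not on the array was not tested.

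Each array carried the sample in Cy3 and a reference pool in Cy5, so that a value is the log2 ratio of sample to pool, and 0 means that sample and pool gave the same signal. Dyes were never swapped. Signal over local background had array medians of 3.75 to 7.10 in Cy3 and of 5.13 to 17.7 in Cy5. The liver array of HF-low-suf replicate 4 stood apart, with a Cy5 median of 12.3 times background and 8.81% of its spots called outliers, against a median of 0.745% over all arrays, and so did the colon array of HF-low-suf replicate 5, with the Cy5 median of 17.7. All 4 members were well above background in Cy3 on all 24 arrays, and no member spot was saturated. The tissue labels held against the markers: all 5 hepatocyte genes on the array were higher in liver, by a median log2 difference of 6.07, and all 9 colon epithelium genes were lower in liver, by a median of -4.50.

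The labels give the reference as an equimolar pool of colon and liver RNA of all mice (intestine and liver in the design text), but in Cy5 it was far brighter than either tissue for some genes, which goes against that label. For a pool of equal parts, the mean of a gene's liver and colon ratios should lie near 1. The median of that mean, 1.03 over the 9124 probes well above background on every array, is held near 1 by the normalization and says nothing of the pool. For all 10 skeletal muscle genes on the list the mean lay between 0.0259 and 0.136. Kidney and small intestine genes were listed because some of them had been seen among the lowest ratios, so their values are a description and no independent evidence. The 12 kidney genes had a median of 0.0624, with 9 of 12 below 0.1, among them Kap at 0.00561, Slc34a1 at 0.0369 and Umod at 0.0581. Of 10 small intestine genes on the array, 9 lay below 0.5, with a median of 0.164. Liver and colon were each set against this same pool, which enters both sides of a difference between them, whereas a ratio to the pool depends on what the pool held.

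Liver and colon differed in 3 of the 4 members. Gpx1 and Gpx4 were higher in liver, Gpx2 was lower in liver, and Gpx3 did not pass the test. The comparison answers where each peroxidase transcript was carried in mice on these diets, and it called 38.3% of all probes by limma with Benjamini-Hochberg adjusted P below 0.05, 19.4% higher and 19% lower in liver, so that a call alone does not set the members apart. That split was 7971 higher and 7812 lower, and it became 7573 and 11964 with the scanner software's processed signals and 4521 and 9226 with median centring. The processed signals moved the median of all probes from 0.02 to -0.19, and relative to it the members' differences were 2.31 for Gpx1, -4.31 for Gpx2, 0.23 for Gpx3 and 0.98 for Gpx4. Whole tissue was extracted, so fewer cells of a type and less RNA per cell cannot be told apart.

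Gpx1 lay above the pool in every liver and below it in every colon. In colon its log2 ratio ran from -2.09 through a median of -1.86 to -1.56 in HF-low-low mice and from -2.30 through -1.92 to -1.75 in HF-low-suf mice. In liver it ran from 0.05 through 0.48 to 0.77 and from 0.13 through 0.52 to 0.86, respectively. The tissues therefore did not overlap, which was so for 12.5% of all probes, while the diets overlapped within each tissue. Liver exceeded colon by 2.37 on the log2 scale (SE 0.09, 95% interval 2.17 to 2.56), which is 5.15-fold, with a limma adjusted P of 1.29e-17. The difference was positive in 12 of 12 mice, from 1.98 to 2.79, and an exact two-sided sign-flip test over the mice gave P = 0.000488, the smallest that 4096 assignments can give. Of the 19089 probes well above background on at least 6 arrays of a tissue, 4.14% leaned further to liver.

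Gpx2, the gastrointestinal enzyme, showed the opposite pattern with a larger difference. Its log2 ratio in colon was between -0.32 and 0.67 in HF-low-low mice (median 0.19) and between -0.29 and 0.48 in HF-low-suf mice (median 0.10). In liver it was between -4.45 and -3.04 (median -4.05) and between -4.49 and -2.73 (median -3.88). No liver reached the lowest colon, and the fitted difference of -4.0 (SE 0.16, 95% interval -4.33 to -3.68) put liver 16-fold lower, with a limma adjusted P of 1.17e-17. All 12 mice had less in liver, by -2.83 to -4.73, and the exact sign-flip P was again 0.000488. Only 0.597% of the 19089 probes leaned further to colon. The liver spots were dim without falling to background, at 7.23 to 15.8 times background in Cy3, against 153 to 690 times in colon.

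The livers with the highest Gpx2 were HF-low-low replicate 6, at -3.04, and HF-low-suf replicate 4, at -2.73. The same arrays had the highest mean over the 9 colon epithelium genes in their groups, at -2.97 where the group median was -3.89, and at -2.82 where it was -3.77. They also had the highest means over the smooth muscle, pancreas and proliferation lists. HF-low-suf replicate 4 is the array with bright Cy5 and many outlier spots. Without both arrays, a choice made after seeing the data, liver minus colon of Gpx2 was -4.19 (SE 0.12).

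Gpx4, the membrane lipid peroxidase, differed less. Its log2 ratio in colon ran from -1.43 to -0.47 in HF-low-low mice (median -1.0) and from -1.51 to -0.84 in HF-low-suf mice (median -0.93). In liver it ran from -0.69 to 0.10 (median -0.32, 5 arrays) and from -0.54 to 0.48 (median -0.25). The spot of the liver of HF-low-low replicate 6 was marked as an outlier by the scanner software and left out, and with such spots kept it read -0.46. The tissues overlapped, since the highest colon, at -0.47, lay above the 4 lowest livers. Liver was nevertheless higher by 0.77 (SE 0.13, 95% interval 0.50 to 1.03), or 1.70-fold, with a limma adjusted P of 1.76e-05. Each of the 11 mice with both values had more in liver, by 0.03 to 1.5, and the exact sign-flip P of 0.000977 was the smallest possible with 11 mice. The size differed with the scan day of the slides, being 0.98 (SE 0.20) on the first day and 0.52 (SE 0.15) on the second, and this difference was not tested.

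Gpx3 stood near -3 in every group. In colon its log2 ratio ran from -3.59 to -2.80 in HF-low-low mice (median -3.00) and from -3.45 to -2.79 in HF-low-suf mice (median -3.10), and in liver from -3.61 to -2.73 (median -2.96) and from -3.5 to -2.70 (median -3.02). All 4 groups overlapped. Liver minus colon was 0.05 (SE 0.11, 95% interval -0.17 to 0.27; limma adjusted P = 0.785), with 6 of 12 mice higher in liver and 6 lower (exact sign-flip P = 0.446). The interval leaves room for at most 1.13-fold less and 1.21-fold more in liver. The sign turned to -0.19 with median centring, -0.06 with the Cy3 channel alone and -0.03 with plain background subtraction, and none of these values passed the test. Within a diet the tissue differences of the members were much the same as over both: 2.31 and 2.42 for Gpx1 in HF-low-low and HF-low-suf mice, -4.14 and -3.86 for Gpx2, 0.06 and 0.04 for Gpx3, and 0.70 and 0.84 for Gpx4.

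**Figure D1:**
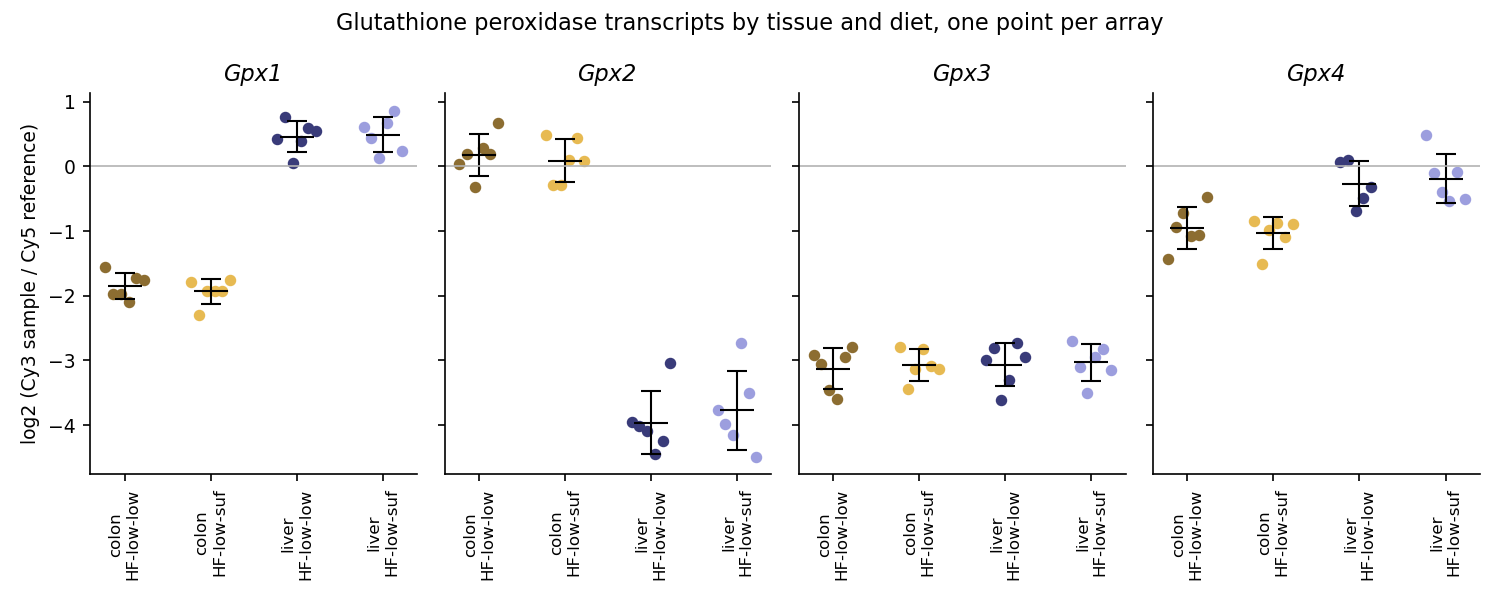
Log2 ratio of sample to reference pool (vertical axis) for each of the 4 genes in the 4 groups of tissue and diet; each point is 1 array and the bars are the mean and SD of a group (6 arrays, 5 for Gpx4 in liver of HF-low-low mice). Gpx1 is higher and Gpx2 lower in liver with no overlap, Gpx4 is higher in liver with overlap, and Gpx3 lies near -3 throughout.

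Gpx3 lay far below the pool in both tissues, at 0.117 of it in colon and 0.121 in liver, whereas Gpx2 was at 0.0684 in liver but 1.10 in colon. The mean of its liver and colon ratios was 0.119, and 81 of the 9124 probes well above background on every array (0.888%) lay lower. The same mean was 0.830 for Gpx1, 0.582 for Gpx2 and 0.679 for Gpx4. Gpx3 lay between the medians of the kidney genes (0.0624) and those of the small intestine genes (0.164) and pancreas genes (0.169), above that of the skeletal muscle genes (0.0423) and below those of the hepatocyte genes (1.82) and colon epithelium genes (1.38). Of the 47 related genes, Ggt1 and Dio3, named after their values were seen, had means of 0.130 and 0.0768, and the rest ran from 0.461 to 5.06. Ggt1, a brush-border enzyme of glutathione breakdown, had ratios of -2.92 ± 0.30 in colon and -2.97 ± 0.53 in liver (SD, n = 12), and Dio3, a deiodinase that inactivates thyroid hormone, of -3.93 ± 0.31 and -3.5 ± 0.57. The part of other tissues' RNA in these ratios was not tested. The Gpx3 spots were bright in the samples, at 67.4 to 188 times background in Cy3.

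**Figure D2:**
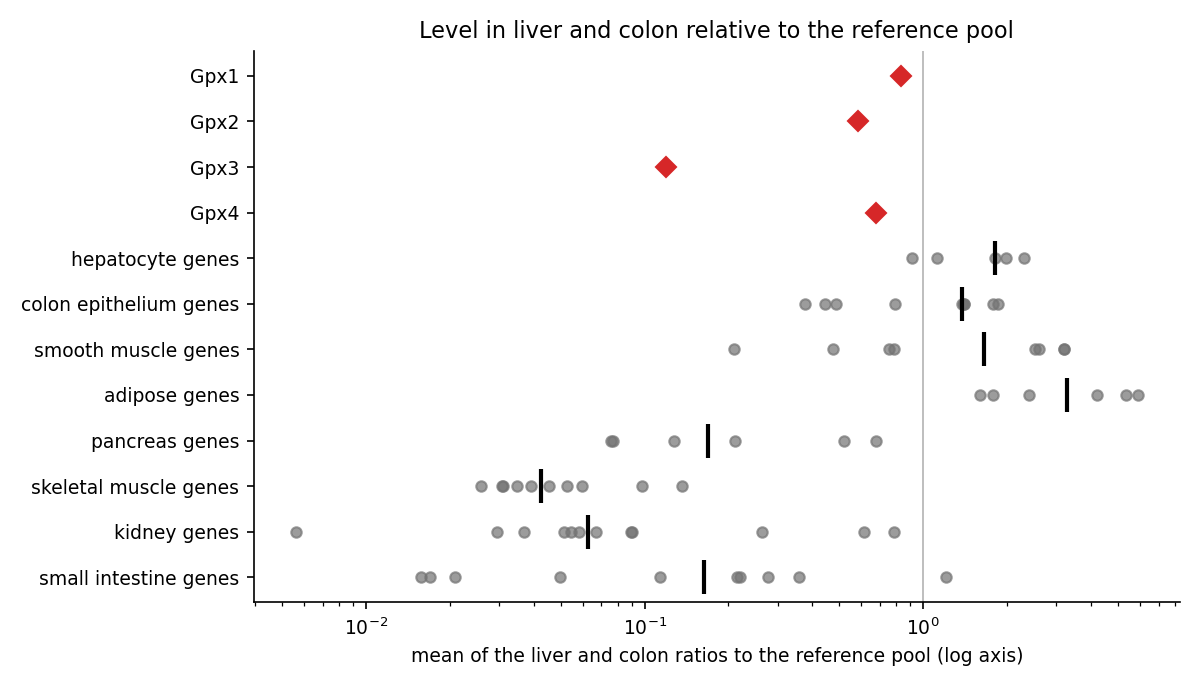
Mean of the liver and colon ratios to the reference pool (horizontal log axis) for the 4 genes (diamonds) and for the genes of 8 marker lists (points, with a bar at each list's median); kidney and small intestine genes were listed after the lowest ratios had been seen. Gpx3, at 0.119, lies between the median of the kidney genes, 0.0624, and those of the small intestine and pancreas genes, 0.164 and 0.169.

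Switching mice to the diet with sufficient selenium and folate at weaning changed none of the 4 transcripts past the test in either tissue. The comparison asks whether the peroxidases, as selenium-dependent enzymes, followed the dietary supply at the transcript level. The study found liver selenium slightly but significantly higher in HF-low-suf mice. It adds that HF-low-low livers were less depleted than in studies with longer feeding, and it has no selenium values for colon. The part of tissue selenium in the diet differences was not tested here. Signed values are HF-low-suf minus HF-low-low, with the sample in Cy3 as the labels state, which is opposite in sign to most of the colon changes the study gives. At an unadjusted P below 0.01 with a fold change above 1.5, limma called 0.117% of all probes in liver and 0.168% in colon, and 0 of the 4 members in each. The called probes were 40 higher and 8 lower on HF-low-suf in liver, and 66 higher and 3 lower in colon. Most changes that the study lists are decreases in both tissues. With plain background subtraction the liver split was 19 higher and 36 lower. After Benjamini-Hochberg adjustment at 0.05 limma called 0 probes in both tissues, whereas 877 in liver (2.13%) and 1228 in colon (2.98%) had an unadjusted P below 0.05, and again 0 of the 4 members.

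In liver the difference was 0.03 for Gpx1 (SE 0.16, 95% interval -0.30 to 0.37), 0.19 for Gpx2 (SE 0.29, interval -0.42 to 0.80), 0.03 for Gpx3 (SE 0.18, interval -0.35 to 0.41) and 0.08 for Gpx4 (SE 0.21, interval -0.38 to 0.53). In colon it was -0.09 for Gpx1 (SE 0.14, interval -0.38 to 0.21), -0.08 for Gpx2 (SE 0.18, interval -0.47 to 0.31), 0.06 for Gpx3 (SE 0.17, interval -0.30 to 0.42) and -0.08 for Gpx4 (SE 0.17, interval -0.44 to 0.28). For Gpx1 in liver, the interval reaches from 1.24-fold lower to 1.29-fold higher. Of the 8 intervals, 7 lie inside a 1.5-fold change in either direction, and that of Gpx2 in liver reaches 1.75-fold higher. Exact two-sided permutation tests over the mice gave P between 0.496 and 0.864, where the smallest possible was 0.00216 (0.00433 for Gpx4 in liver). The mean over the adipose list was 2.58 in 1 liver, HF-low-suf replicate 1, against a median of -0.95 in its group, and the mean over the skeletal muscle list was -2.82 in that of replicate 2, against -4.0. Without the liver of replicate 1, the diet differences in liver were 0.01 for Gpx1, 0.19 for Gpx2, -0.04 for Gpx3 and -0.06 for Gpx4, so those of Gpx3 and Gpx4 changed sign, and none passed the test. The diet difference of Gpx2 in liver moved when 1 of the livers that stood apart for it was left out. It was -0.02 (SE 0.24) without HF-low-suf replicate 4 and 0.38 (SE 0.26) without HF-low-low replicate 6. Without both, which lie in different diet groups, it was 0.17 (SE 0.19), near the 0.19 over all livers.

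The diet difference did not differ between liver and colon past the test for any member. Liver minus colon of the diet differences was 0.12 for Gpx1 (SE 0.19, interval -0.27 to 0.51), 0.28 for Gpx2 (SE 0.32, interval -0.37 to 0.93), -0.03 for Gpx3 (SE 0.22, interval -0.48 to 0.42) and 0.14 for Gpx4 (SE 0.26, interval -0.38 to 0.67). Exact permutation P over the liver minus colon differences of the mice ran from 0.392 to 0.833. Over all probes limma called 0 after adjustment, with 2646 (6.43%) at an unadjusted P below 0.05, none of them a member.

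**Figure D3:**
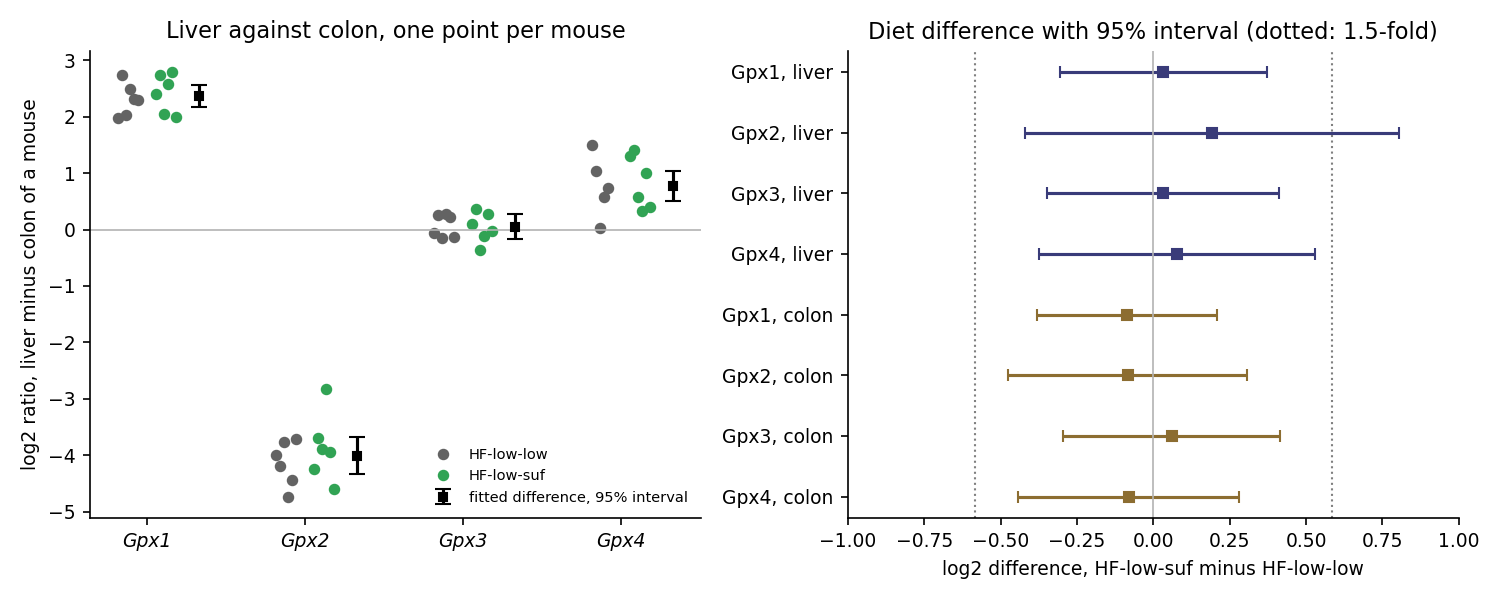
Left, liver minus colon log2 ratio of each mouse by gene and diet, with the fitted difference and its 95% interval; right, HF-low-suf minus HF-low-low log2 difference with its 95% interval in liver and colon, dotted lines at 1.5-fold. All mice lie above 0 for Gpx1 and Gpx4 and below 0 for Gpx2, and every diet interval includes 0.

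The members varied between mice of a group to different degrees. In colon the SD within a diet was 0.20 for Gpx1, 0.33 for Gpx2, 0.28 for Gpx3 and 0.29 for Gpx4, beside a median of 0.26 over the 13844 probes well above background on all 12 arrays. In liver it was 0.26, 0.55, 0.31 and 0.36, beside a median of 0.26 over 9775 probes. Gpx2 in liver had the highest SD, above that of 93.4% of those probes, and Gpx1 in colon the lowest, with 23.9% of probes varying less. The SD of Gpx2 in liver rested on the livers of HF-low-low replicate 6 and HF-low-suf replicate 4: without both, a choice made after seeing the data, it was 0.30, above that of 62.8% of probes, beside 0.28 for Gpx1, 0.34 for Gpx3 and 0.36 for Gpx4.

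Gpx1 and Gpx3 moved together from mouse to mouse. Over the 12 livers Pearson's r was 0.880 (permutation P = 0.00017) and Spearman's rho 0.853 (permutation P = 9.0e-04), and both passed Benjamini-Hochberg adjustment over the 36 relations computed, at 0.00612 and 0.0227. Of 9674 other probes in liver, 32 (0.331%) followed Gpx1 more closely than Gpx3 did, and the median r with Gpx1 was 0.03. Each slide carried the arrays of one replicate number, 1 from every group. The livers on slide 3 were the lowest for both genes in both diets, with Gpx1 at 0.05 and 0.13 and Gpx3 at -3.61 and -3.5. Without slide 3, a choice made after seeing the data, r was 0.721, with the slide means taken out 0.790, within the first and second scan day 0.949 and 0.734, and without the 2 livers farthest from the Gpx1 median 0.848. In colon r was 0.725 (permutation P = 0.00676, adjusted 0.0608), 0.780 and 0.70 within the scan days and 0.582 with the slide means taken out. There 402 of 13799 other probes (2.91%) followed Gpx1 more closely than Gpx3 did, and 964 (6.99%) followed Gpx3 more closely than Gpx1 did. The values of an array share its hybridization and its normalization, and their part was not tested.

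**Figure D4:**
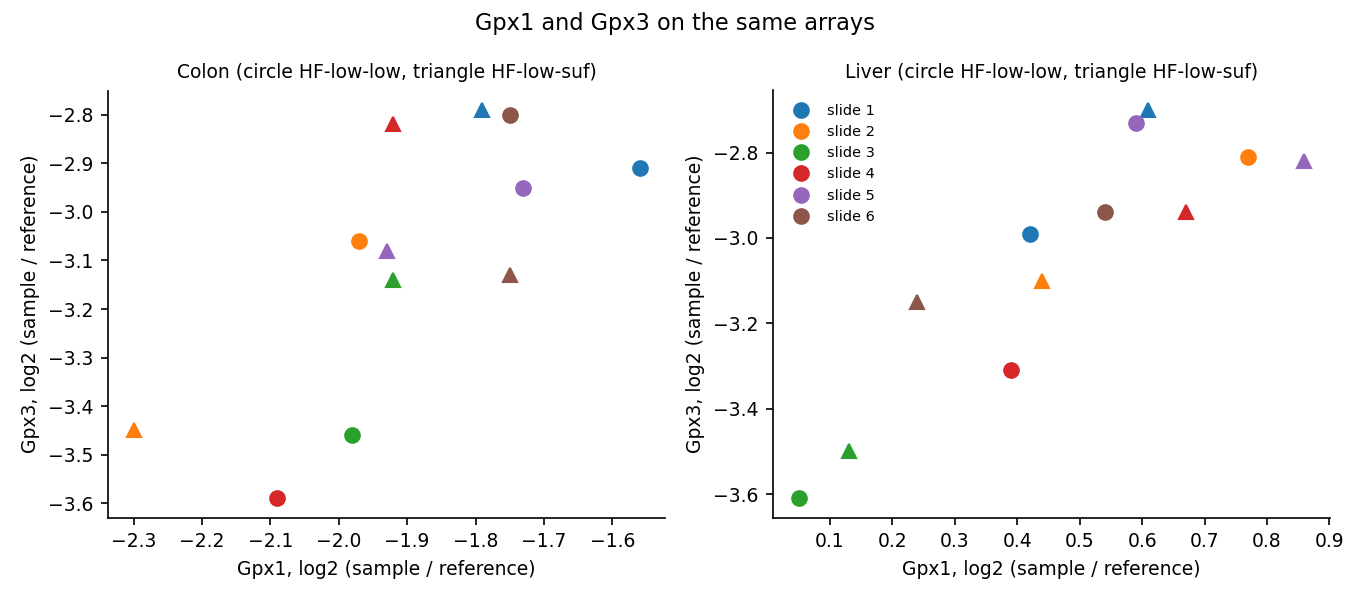
Log2 ratio of Gpx3 (vertical) against that of Gpx1 (horizontal) on each array of colon (left) and liver (right), coloured by slide, with circles for HF-low-low and triangles for HF-low-suf. In liver the points rise together (r = 0.880, n = 12), with the 2 livers of slide 3 at the lower left.

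In colon, Gpx1 and Gpx3 also followed the smooth muscle list, whose mean over 8 genes ran from 0.66 to 1.34 in HF-low-low and from 0.58 to 1.28 in HF-low-suf colons. For Gpx1 Pearson's r was 0.823 (permutation P = 8.6e-04, adjusted 0.0119) and for Gpx3 0.825 (permutation P = 9.9e-04, adjusted 0.0119). Spearman's rho was 0.727 and 0.734, and neither passed adjustment, at 0.0814. Without the 2 colons farthest from the smooth muscle median, r was 0.541 for Gpx1 and 0.605 for Gpx3. Within the scan days it was 0.937 and 0.703 for Gpx1 and 0.838 and 0.806 for Gpx3, and with the slide means taken out 0.575 for Gpx1 and 0.855 for Gpx3. In liver, Gpx2 and the adipose list had a rho of 0.832 (permutation P = 0.00126, adjusted 0.0227) but an r of 0.287 (permutation P = 0.339), and r was 0.922 without the 2 livers farthest from the adipose median and 0.891 and 0.951 within the scan days, but 0.411 with the slide means taken out and 0.246 without slide 3. No other relation among the 36 passed adjustment by either measure.

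Among named genes well above background on all 12 arrays of a tissue, those most like a member in pattern were taken as a description, with no test. In liver they were Pip5k2c, Lrp10 and Neu1 for Gpx1 (r of 0.954, 0.937 and 0.936), Agr2, Egf and Vdr for Gpx2 (0.986, 0.982 and 0.980), and Igh-VJ558, Lztr1 and Defcr3 for Gpx3 (0.948, 0.942 and 0.939), over 12 arrays. For Gpx4, over 11 livers, they were Wipi2, Tfip11 and Cox7a2 (0.943, 0.937 and 0.930). In colon they were Anp32b, C78339 and 1300018I05Rik for Gpx1 (0.909, 0.894 and 0.893), Klhdc4, Mlkl and Tnip1 for Gpx2 (0.890, 0.880 and 0.867), Jak1, Cfb and Limd1 for Gpx3 (0.978, 0.966 and 0.965), and Bet1l, Ikbke and Spsb3 for Gpx4 (0.895, 0.892 and 0.890). No gene stands in more than 1 of these lists.

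The other genes of the pathway are given beside the 19.4% of all probes that were higher and the 19% that were lower in liver. With dim probes left out, 6104 of 17034 probes were higher and 6332 lower, so that counts of detected genes are to be read against those. Of the 4 other members of the GPX family, Gpx8, named 2310016C16Rik on the array, was 1.98-fold lower in liver (log2 difference -0.99, SE 0.15, limma adjusted P = 2.66e-06), Gpx6 passed the test but was well above background on 1 array of each tissue, and Gpx5 (well above background on 0 arrays) and Gpx7 did not pass. Of 19 other selenoproteins, 9 were higher in liver, 4 lower and 6 not called, with a median difference of 0.11 beside 0.02 over all probes. Dio3, among those higher, lost the call under 5 of 7 other processing settings, and its sign with median centring. Selenot (2810407C02Rik on the array) and Selenoi (D5Wsu178e), also among those higher, and Sepn1, among those lower, lost the call with median centring. Sepp1, which carries selenium from the liver to other organs, was 6.40-fold higher in liver (2.68, SE 0.09), and Sephs2, which makes the selenium donor for selenocysteine, 4.63-fold higher (2.21, SE 0.27). Selm, of the endoplasmic reticulum, was 14.9-fold lower in liver (-3.90, SE 0.13), and Txnrd3, a thioredoxin reductase, was 1.46-fold lower (-0.54, SE 0.10). Sepw1 (-0.21, SE 0.12, adjusted P = 0.170) and Txnrd1 (-0.10, SE 0.10, adjusted P = 0.519) did not pass, and Selenoh, on the array as 2700094K13Rik, was lower in liver by -0.46 (SE 0.11, adjusted P = 0.00179).

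All 7 genes of selenocysteine incorporation were higher in liver after loess, with a median difference of 0.59. With median centring, however, Secisbp2, Sephs1, Pstk and Trspap1 lost the call, and Pstk and Trspap1 turned to -0.09 each. Trspap1 also lost the call with the Cy3 channel alone. The largest differences were those of Scly, which releases selenium from selenocysteine (6.15-fold; 2.62, SE 0.08), and Eefsec, the elongation factor for selenocysteine (2.10-fold; 1.07, SE 0.10). Of 10 other peroxide and superoxide enzymes, 9 were higher in liver, with a median difference of 1.02 (Sod3 among them, well above background on 1 array of each tissue), led by catalase (Cat, 8.91-fold; 3.16, SE 0.11) and Prdx4 (5.08-fold; 2.35, SE 0.09), and Prdx2 was 1.16-fold lower (-0.22, SE 0.07, adjusted P = 0.0114). Of 7 genes of glutathione synthesis and recycling, Gclc and Gclm, the subunits of the enzyme that limits glutathione synthesis, were 3.57-fold and 2.09-fold higher in liver, Glrx was 1.40-fold lower, and Gss, Gsr, Ggt1 and Slc7a11 did not pass. Slc7a11 was well above background on 0 arrays of either tissue. Gclm no longer passed with plain background subtraction, nor did Prdx3, Prdx5 and Sod3 with median centring.

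**Figure D5:**
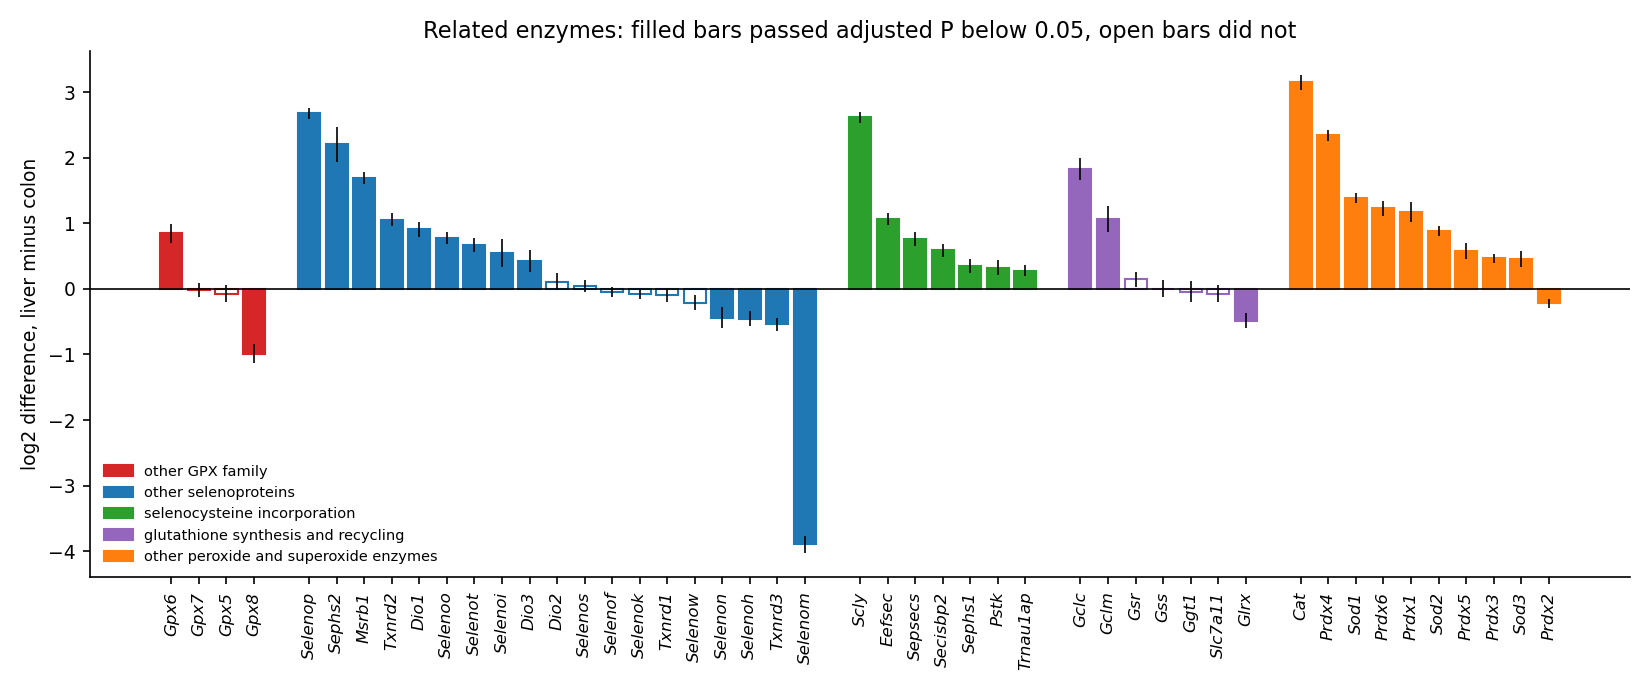
Log2 difference of liver minus colon (vertical axis; bars with SE) for 47 genes related to the members, grouped by list and ordered within it, over 24 arrays, with the brightest probe where a gene had several; filled bars passed the test. Sepp1 (drawn as Selenop), Scly and Cat lie highest, at 2.68, 2.62 and 3.16, and Selm (Selenom) lowest, at -3.90.

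None of these 47 genes was called by diet in liver or colon, beside 0.117% and 0.168% of all probes. The lowest unadjusted limma P was 0.117 in liver, for Slc7a11, which was not detected, and 0.0846 in colon, for Gclm. Among the selenoproteins, the diet differences were 0.17 (SE 0.16) in liver and 0.03 (SE 0.18) in colon for Sepw1, 0.16 (SE 0.20) and -0.06 (SE 0.15) for Selenoh, 0.11 (SE 0.13) and 0.10 (SE 0.16) for Sepp1, and -0.06 (SE 0.14) and 0.07 (SE 0.16) for Txnrd1. The median diet difference of the 19 selenoproteins was 0.06 in liver and 0.03 in colon, beside medians of 0.01 and -0.01 over all probes. A P value that misses the threshold does not show that these transcripts were alike on both diets.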

How the data were processed

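RNA of 12 livers and 12 colons was hybridized to 24 two-colour Agilent arrays, with the sample in Cy3 and the pool in Cy5. The authors quantified spots with Agilent Feature Extraction, and the deposited intensity values are mean spot signals and local background medians on a linear scale, not yet normalized between channels. The members and gene lists used here were chosen with earlier results of these data known. In R 4.3.3 with limma 3.58.1, background was corrected by normexp (offset 50), log2 ratios of Cy3 over Cy5 were loess-normalized within arrays, 1639 of 45018 spots were removed as controls, outlier spots were left out, and repeated spots were averaged to 41174 probes. Diets were compared within each tissue over 12 arrays, and tissues and the difference between diet effects over 24 arrays with mouse as a random block (correlation 0.158). limma's P values were adjusted by Benjamini-Hochberg over all probes. A diet call required P below 0.01 before adjustment together with more than 1.5-fold change; other calls required adjusted P below 0.05. Named related genes were the 2 highest and 2 lowest called in liver in each list, if detected above background on 6 or more of the 12 arrays of a tissue, with Sepp1, Sepw1, Selenoh and Txnrd1 always given, and the 3 genes most correlated with each member. Gpx5, Gpx6, Gpx7, Sod3, Dio3, Selenot, Selenoi, Sepn1, Ggt1, Gss, Gsr, Slc7a11, Secisbp2, Sephs1, Pstk, Trspap1, Prdx3 and Prdx5 were named outside this rule after their values were seen, and the kidney and small intestine lists were added likewise. Scripts were tested on simulated data.

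A replicate number marks a slide, and within a diet it marks one mouse in both tissues, as the labels give it. Deviations from group means correlated between colon and liver of a mouse by -0.12 to 0.45, and pairing of the tissues rests on the animal. Between diets on the same slide they correlated by -0.06 to 0.78 in liver and -0.38 to 0.52 in colon. Slide joins different mice and was not taken as a pairing in the main fits, although the highest of these values exceeded the 0.45 within a mouse. It was fitted as a block among the alternatives. Scan day 1 held replicates 1 to 3 and scan day 2 replicates 4 to 6. Precision is limited by the number of arrays. Alternatives covered background correction, normalization, dim and outlier spots, scan day, blocks and each replicate left out.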

Additional observations from a re-analysis of the deposited data

Results flagged for a closer look

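Of 16 groups of a gene, tissue and diet, 2 held an array far from the rest, where chance gives about 1 in 20. Gpx1 in the colon of HF-low-suf replicate 2 was the lowest of its 6 arrays, at -2.30, with a gap to the next that took up 0.677 of the group's range. Gpx2 in the liver of HF-low-low replicate 6 was the highest of its 6 arrays, at -3.04, with a gap of 0.651 of the range.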

How the results depend on the processing

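None of 432 member values recomputed under 55 alternatives crossed its threshold, and no called difference changed sign. Uncalled differences near 0 changed sign under several alternatives. In 2 of these the value moved by more than the SE of the value reported, both with median centring, where the diet difference of Gpx1 in colon became 0.063 (SE 0.20) and liver minus colon of Gpx3 became -0.19 (SE 0.12); the cause was not tested. Liver minus colon ranged from 2.12 to 2.46 for Gpx1, -4.56 to -3.93 for Gpx2 and 0.52 to 0.98 for Gpx4, passing the test each time. Leaving out each mouse gave 2.32 to 2.41, -4.11 to -3.93 and 0.68 to 0.85, and 0.02 to 0.09 for Gpx3. Without the pair of arrays with the brightest Cy5, chosen after seeing the data, Gpx1 was 2.34 and Gpx2 -4.08. Without the livers of HF-low-suf replicates 1 and 2, chosen likewise for their adipose and skeletal muscle means, Gpx1 was 2.35 and Gpx4 0.67. The same omission turned the diet difference of Gpx4 in liver from 0.08 to -0.11, that of Gpx3 from 0.03 to -0.04, and the liver minus colon diet contrast of Gpx4 from 0.14 to -0.06, none past the test.

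With each mouse as a fixed replicate block, liver minus colon was 2.37 for Gpx1, -4.0 for Gpx2, 0.05 for Gpx3 and 0.81 for Gpx4. With slide as a fixed block, the diet differences of Gpx4 were 0.14 in liver and -0.08 in colon, and no block changed a call of a member.

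Counts of probes called by diet were unstable: 48 in liver became 2 with median centring or without dim probes, 4 with Cy3 alone, 12 without background correction, 2 within scan day 2, 131 with slide as a block, 137 in a fit of all 24 arrays, 142 without the livers highest in colon epithelium genes, and 9 to 304 without a single array (304 without HF-low-low replicate 3). In colon 69 became 3 without dim probes, 1 with Cy3 alone, 13 without background correction, 26 with median centring, 278 and 103 within scan days 1 and 2, 113 with scan day as a covariate, and 23 to 257 without a single array (257 without HF-low-low replicate 5). None passed adjustment in any of these settings. Aquantile scaling leaves the log ratios as they are by construction, and other probes of a member could not be tried because each had 1.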
